A study of Rattus norvegicus with 38 samples.

Results

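Blood vessels and clusters of neurons, both cut by laser microdissection from the cortex, were compared within the same early-stage SHRSP rats. SHRSP are stroke-prone rats bred from the spontaneously hypertensive line, and the early animals were 24 to 25 weeks old. Libraries were chosen by the material, stage and strain in their titles and paired by the number at the start of the title, read as the animal. This gave 5 vessel libraries and 5 neuron libraries from animals 374, 377, 380, 383 and 386, 10 of the 38 libraries of the series. Pairs from other animals are used for comparison: 5 pairs from late SHRSP rats (32 to 34 weeks), 5 pairs from early Wistar rats (24 to 25 weeks) and 4 pairs from late Wistar rats (32 to 34 weeks). The labels name no treatment, and strain and age are the only differences between animals that they give. The sources used here do not give which kinds of vessel were cut or how neuron clusters were recognised.

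A brain vessel is lined by endothelial cells whose tight junctions form the blood-brain barrier. It is wrapped by pericytes or, in arteries, by contractile smooth muscle, and astrocyte endfeet cover its outer side. A cortical neuron cluster holds excitatory and inhibitory nerve cells with glia and capillaries between them, so either cut can carry RNA of neighbouring cells. Long-standing hypertension is known to thicken and stiffen the walls of small brain arteries. The deposited table gives genes by Ensembl identifier (ID) without names, and 0 of its 32883 IDs matched a symbol in the reference used here. The labelled materials could therefore not be checked against markers of vessel or nerve cells, and results are given for IDs. A difference between such cuts cannot tell fewer cells of a type apart from less RNA per cell.

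Totals lay between 1612966 and 3097536 counts in the vessel libraries and between 1198386 and 3772677 counts in the neuron libraries. Vessel libraries held far fewer IDs. At an equal depth of 1198386 counts, the expected number of IDs with at least 1 count was 5001, 3680, 4984, 9957 and 5907 in vessels of animals 374, 377, 380, 383 and 386, against 11987, 12804, 12780, 12700 and 12969 in their neurons. The ranges did not overlap, and vessels were lower in all 5 pairs (5906 ± 2400 in vessels and 12648 ± 382 in neurons, SD, n = 5 each; exact paired permutation test, two-sided, p = 0.0625, the smallest that 5 pairs allow). Among these 5 animals, 383 stood apart, with more IDs in its vessels and a larger share of counts in the most abundant ID, ENSRNOG00000043866. That share was 17.7% in its vessels and 21.8% in its neurons, against 6.45% to 7.54% in vessels and 5.37% to 6.74% in neurons of the other 4 animals. Such values were found in other sets too. Late SHRSP vessels had 9145 to 11402 IDs at equal depth and shares of 9.69% to 31.0%. The vessels of early Wistar animal 349 had 11393 IDs and a share of 40.6%.

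Missing counts were a feature of the vessel libraries. Of the 7394 IDs with a mean of at least 10 CPM (counts in each 1e6, scaled) over the 10 libraries, 29.1%, 50.2%, 31.8%, 3.84% and 24.0% had no count in the vessels of animals 374, 377, 380, 383 and 386. In neurons the same share lay between 0.0135% and 0.203%. That mean is taken over both materials, so an ID can reach it through neurons alone. The part of counting error in these zeros was not tested.

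**Figure D1:**
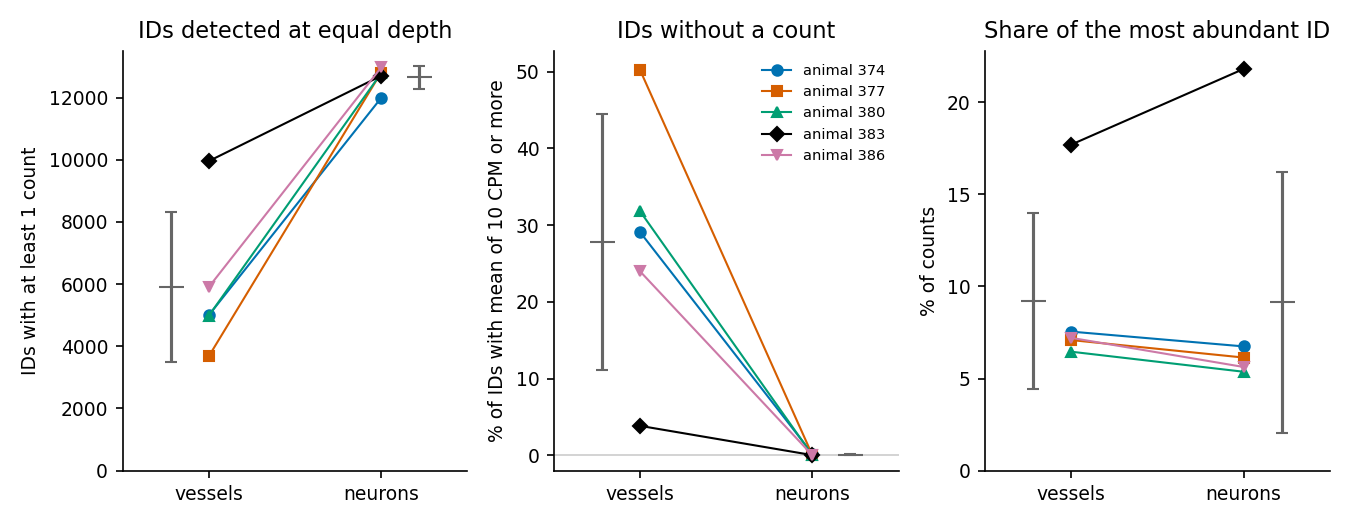
Values per library for vessels (left) and neurons (right) of 5 early SHRSP animals, joined by animal: IDs detected at 1198386 counts, the percentage of 7394 IDs with a mean of at least 10 CPM that had no count, and the percentage of counts in the most abundant ID. Grey bars are the mean ± SD; animal 383 has 9957 IDs in its vessels, against 3680 to 5907 in the vessels of the other animals.

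Vessels differed from neurons in 530 of the 9015 IDs tested (edgeR's quasi-likelihood test with the animal as a block, Benjamini-Hochberg adjusted p under 0.05). Of these, 50 were higher in vessels (0.555% of the IDs tested) and 480 were lower (5.32%). The 2 sides differed in level. The 50 higher IDs were abundant, with means of 204 to 27055 CPM in vessels (median 1287) and 0.60 to 12749 CPM in neurons (median 86.8), and all 50 had counts in every vessel library. Among the 480 lower IDs, 433 had no count in at least 3 of the 5 vessel libraries and 47 had counts in all 10 libraries. No called ID lay between. Over all IDs tested, 25.7% had counts in every vessel library. The share without a count in 1, 2, 3, 4 and 5 vessel libraries was 21.2%, 19.7%, 18.0%, 13.1% and 2.30%.

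ENSRNOG00000015550 was the higher ID with the smallest p. It measured 9266, 3319, 7883, 4781 and 4123 CPM in vessels of animals 374, 377, 380, 383 and 386, against 49.98, 62.2, 50.2, 24.2 and 56.8 CPM in their neurons. Every vessel library lay far above every neuron library, also in animal 383. The fitted difference was 118-fold (log2 fold 6.88, SE 0.23, adjusted p = 3.36e-183 in edgeR), larger than for 99.96% of the IDs tested. ENSRNOG00000029886 measured 5337, 5862, 8060, 5112 and 6362 CPM in vessels, against 245, 974, 540, 201 and 584 CPM in neurons of the same animals. It was 14.1-fold higher (log2 fold 3.82, SE 0.19), again with no overlap. Relative to the mean, its level varied more in neurons (509 ± 311 CPM) than in vessels (6147 ± 1174 CPM, SD, n = 5 each). Both calls were kept in all 15 alternative settings, with the log2 fold of the first between 6.69 and 10.60 and that of the second between 3.42 and 7.54.

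The 50 higher IDs had a median log2 fold of 3.65, from 0.71 to 8.80; 37 were at least 4-fold and 23 at least 16-fold higher, and 6 were less than 2-fold higher. In 45 of the 50 all vessel libraries lay above all neuron libraries, as they did for 138 (1.53%) of the 9015 IDs tested. In 48 of the 50 the difference had the same direction in all 5 animals; the exceptions lay in animal 377. The median log2 ratio of vessels over neurons across the 50 IDs was 3.94, 3.78, 3.20, 3.99 and 3.30 in animals 374, 377, 380, 383 and 386. The fit that called them held all 5 animals, so this likeness between animals is in part built in. Together these IDs, which were chosen on these libraries, took 13.3% ± 1.60 of the counts in vessels and 5.12% ± 0.723 in neurons (SD, n = 5 each), from 10.7% to 14.6% and from 4.30% to 5.81%. The count was 91 without animal 377 and 32 without animal 386, and 99 without the animal block. The 50 IDs were among the 99, and 32 of them were called with each animal left out in turn.

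**Figure D2:**
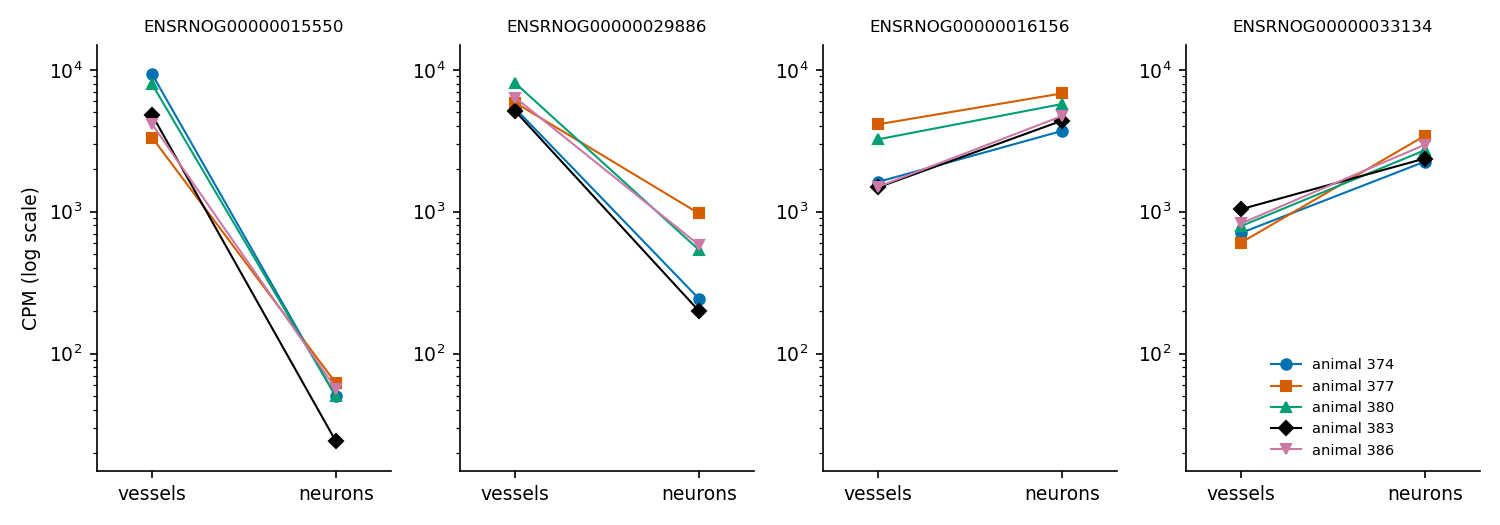
CPM on a log axis in vessels (left) and neurons (right) of 5 early SHRSP animals, joined by animal, for the 2 higher and the 2 lower IDs with the smallest p. ENSRNOG00000015550 lies between 3319 and 9266 CPM in vessels and between 24.2 and 62.2 CPM in neurons; ENSRNOG00000016156 lies between 1485 and 4129 CPM in vessels and between 3704 and 6811 CPM in neurons.

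On the lower side, the 47 IDs with counts in every library had mean levels of 26.3 to 3701 CPM in vessels (median 485). In neurons these were 252 to 5544 CPM (median 1239). Not all were abundant in vessels. ENSRNOG00000005726, described below, was at 1.835 CPM or less in vessels outside animal 383 (scaled over all 38 libraries). Over the 47 IDs the median log2 fold was -1.59, from -6.79 to -0.61, and 42 had the same direction in all 5 animals. The median log2 ratio of the 47 lay between -1.49 and -1.24 in each of the 5 animals. This likeness is also in part built in, since the IDs were called on these same animals. ENSRNOG00000016156 measured 1622, 4129, 3236, 1485 and 1499 CPM in vessels of animals 374, 377, 380, 383 and 386, against 3704, 6811, 5731, 4373 and 4713 CPM in neurons. Vessels were lower in each pair, but the ranges overlapped, because the vessels of animal 377 lay above the neurons of animal 374. The fitted log2 fold was -1.19 (SE 0.16, adjusted p = 1.05e-11 in edgeR). ENSRNOG00000033134 measured 710, 607, 793, 1042 and 828 CPM in vessels, against 2252, 3426, 2710, 2369 and 2959 CPM in neurons, with no overlap and a log2 fold of -1.79 (SE 0.25).

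The calls of these 47 IDs changed with the scaling and the method. Of the 47, 46 were kept with TMMwsp scaling, 0 with DESeq2-type scaling, 0 with the median log2 fold set to 0 and 7 in DESeq2. With DESeq2-type scaling the SE changed as well as the fold. It was 0.33 for ENSRNOG00000016156 and 0.46 for ENSRNOG00000033134, set beside 0.16 and 0.25 in the edgeR fit above. With the median set to 0, 29 of the 480 lower IDs were called higher instead. The median log2 fold of all 9015 IDs was -3.54, so both named IDs lay above the median although they were lower in vessels, as did 44 of the 47. With DESeq2-type scaling, which gave a median of -3.01, ENSRNOG00000016156 did not pass (adjusted p = 0.131) and neither did ENSRNOG00000033134 (0.0855); with the median set to 0 both turned to higher in vessels, at log2 folds of 2.53 and 1.93, and 758 IDs were higher and 188 lower (80.1% of calls higher, against 9.43%). Over the alternatives in which they stayed lower, their adjusted p in edgeR, DESeq2 and limma voom ran from 3.19e-15 to 0.548 and from 2.37e-12 to 0.225.

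The 433 other lower IDs were of low level, at 0 to 0.478 CPM in vessels (median 0.0682) and 4.85 to 70.0 CPM in neurons (median 11.1). With at least 3 vessel libraries at 0, all 433 passed the filter on low counts only through neurons. That their vessel libraries all lay below their neuron libraries, as for 1290 (14.3%) of the IDs tested, was therefore built into their selection and is a description. Among them were the 207 IDs tested that had no count in any vessel library, and all 207 were called. Against a limit of 3 counts over the whole vessel group, or 0.252 CPM, these 207 were at least 19.95-fold to at least 159-fold lower in vessels, with a median of at least 39.4-fold, a limit that covers counting error only. The median fitted log2 fold of the 480 lower IDs was -7.09, and -5.94 with the 207 IDs set at that limit.

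Calls of this kind changed with the animals included and with the method. The number of lower IDs was 34, 46, 20 and 12 without animals 374, 377, 380 and 386, and none of the 433 was among them. Without animal 383, whose vessels had the fewest missing counts, it was 2334, with 426 of the 433 among them. The newer quasi-likelihood method of edgeR, tried after the data were seen, gave 66 higher and 25 lower IDs. It kept 46 of the 50 higher IDs, 18 of the 47 lower IDs with counts in every library and 3 of the 433. DESeq2 and limma voom gave 4475 and 4168 lower IDs, with all 433 among them in each.

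**Figure D3:**
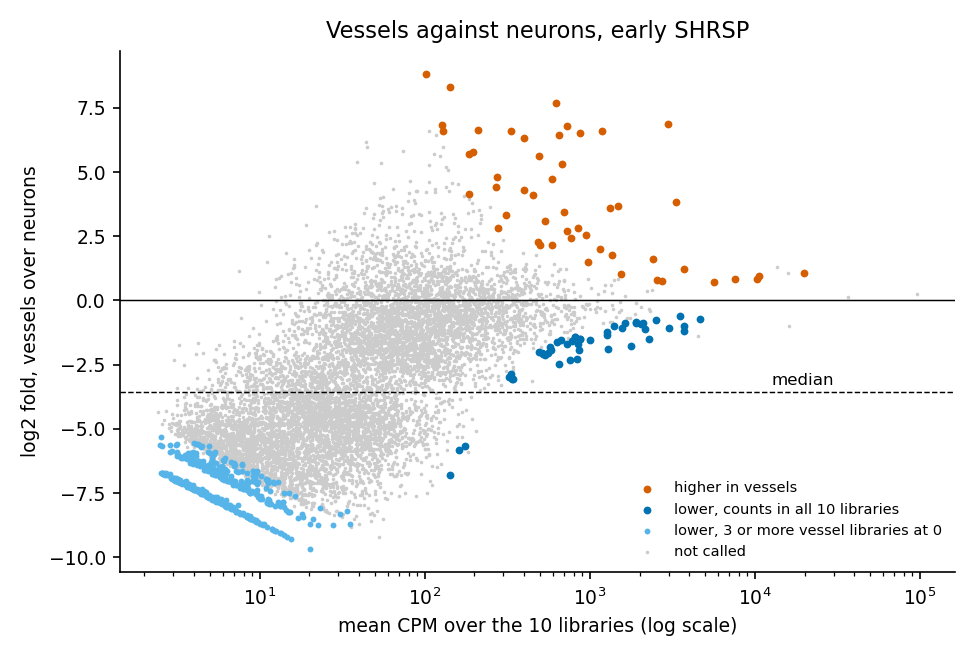
Fitted log2 fold of vessels over neurons in early SHRSP animals (vertical) against the mean CPM over the 10 libraries on a log axis (horizontal) for 9015 IDs, coloured by call. The dashed line is the median log2 fold of -3.54; the 50 higher IDs lie at high levels, and the 433 lower IDs with at least 3 vessel libraries at 0 lie at the lower left.

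The shift towards neurons varied with the animal and with the level of the IDs. Over all 9015 IDs, the median log2 ratio was -3.24, -4.02, -2.98, -0.09 and -2.03 in animals 374, 377, 380, 383 and 386. It was thus nearly absent in animal 383. The median fitted log2 fold was -5.59 over the 1621 IDs with a mean under 10 CPM, -3.83 over 5513 IDs from 10 to 100 CPM, -0.60 over 1805 IDs from 100 to 1000 CPM and -0.28 over the 76 IDs at 1000 CPM or more. At least 1 vessel library was without a count for 99.8%, 86.5%, 17.1% and 0% of the IDs in these classes. At least 3 were without a count for 89.1%, 28.3%, 0% and 0%. Such IDs could pass the filter on low counts only with the help of neuron libraries, and the level is a mean over both materials. The negative medians and their trend with level are therefore in part built in. The ratio of the group means, log2 of CPM + 1, had a median of -0.38 over all IDs, against -3.54 for the fitted fold. In the highest class 17 of 76 IDs were higher in vessels and 19 were lower. Over the 1881 IDs with a mean of at least 100 CPM, the median log2 ratio by animal ran from -0.62 in animal 377 to 0.05 in animal 374.

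**Figure D4:**
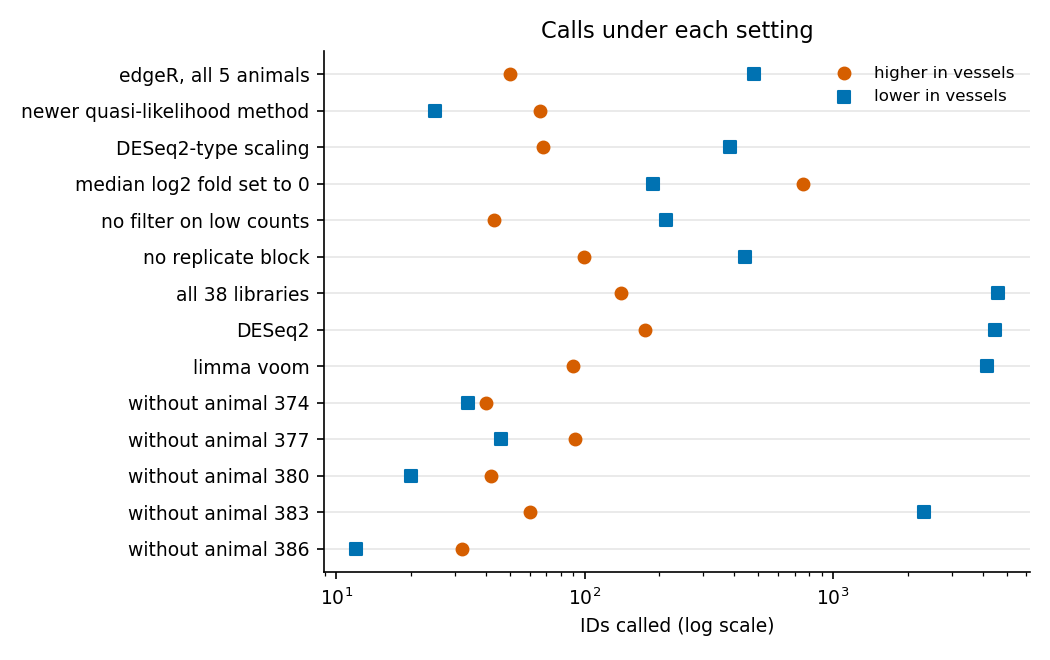
Number of IDs called higher (circles) and lower (squares) in vessels on a log axis, for the edgeR fit to all 5 pairs and for 13 of the 15 alternatives. Higher calls run from 32 without animal 386 to 758 with the median log2 fold set to 0, and lower calls from 12 to 4602.

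Vessel and neuron libraries of other animals were then compared in the same way, each set fitted on its own, so that no library is shared. The vessel-higher IDs of early SHRSP were higher there too. In late SHRSP, 49 of the 50 were tested, all 49 were higher in vessels and 48 were called, which is 96.0% of the early SHRSP list and 9.14% of the 525 higher calls in late SHRSP (5.19% of 10108 IDs tested). In early Wistar, 48 were tested, all 48 were higher and 31 were called, 62.0% of each list, since early Wistar also had 50 higher calls (0.551% of 9070). In late Wistar, 49 were tested, all 49 were higher and 41 were called, 82.0% of the early SHRSP list and 7.14% of the 574 there (5.58% of 10292). Higher values in vessels were found for 37.1%, 19.7% and 39.0% of all IDs tested in these 3 sets. Over the 4 sets, 27 IDs were called higher and 7 lower in each.

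ENSRNOG00000015550 was higher in vessels of each set, at log2 folds of 6.72 (SE 0.29) in late SHRSP, 5.26 (SE 0.35) in early Wistar and 6.05 (SE 0.29) in late Wistar, set beside 6.88 in early SHRSP. Its vessel level averaged 5875 ± 2566 CPM in early SHRSP (n = 5), 2071 ± 588 in late SHRSP (n = 5), 2376 ± 1861 in early Wistar (n = 5) and 1724 ± 551 in late Wistar (n = 4), each scaled within its own set. ENSRNOG00000029886 had log2 folds of 4.76 (SE 0.23) in late SHRSP, 2.70 (SE 0.78) in early Wistar, where it did not pass (edgeR adjusted p = 0.344), and 4.21 (SE 0.35) in late Wistar. ENSRNOG00000016156 had log2 folds of -1.35 (SE 0.16) in late SHRSP, -1.33 (SE 0.18) in early Wistar and -0.64 (SE 0.26) in late Wistar, where it did not pass (edgeR adjusted p = 0.157). ENSRNOG00000033134 was lower in vessels in all 4 sets, at -1.09 (SE 0.19), -0.88 (SE 0.20) and -0.94 (SE 0.21) in late SHRSP, early Wistar and late Wistar.

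The lower IDs divided again by kind. Of the 47 with counts in every library, all 47 were lower in late SHRSP vessels and 25 were called, 44 were lower in early Wistar with 13 called, and 42 were lower in late Wistar with 20 called. The calls were 298 (2.95%), 37 (0.408%) and 349 (3.39%) in these sets. Of the 433 with at least 3 vessel libraries at 0, 416 were tested in late SHRSP and 353 were lower, but 4 were called. In early Wistar 354 of 372 were lower and 0 were called, and in late Wistar 345 of 411 were lower and 8 were called. Lower values were found for 62.9%, 80.3% and 61.0% of all IDs tested in these sets. Lower with an unadjusted p under 0.05 in edgeR were 45 of the 416 in late SHRSP, 92 of the 372 in early Wistar and 60 of the 411 in late Wistar, set beside 12.2%, 10.2% and 12.4% of all IDs tested. Of the 207 IDs without a count in early SHRSP vessels, 204 had a count in at least 1 vessel library of late SHRSP rats and 49 in all 5. In early Wistar vessels the numbers were 199 and 2, and in the 4 late Wistar vessel libraries 203 and 94. The 207 were chosen for having no count in early SHRSP vessels, so counts elsewhere are in part built in. The same share over all IDs was not computed. Totals also differed, at 2561524 to 4963429 counts in late SHRSP vessels and 1612966 to 3097536 in early SHRSP vessels.

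**Figure D5:**
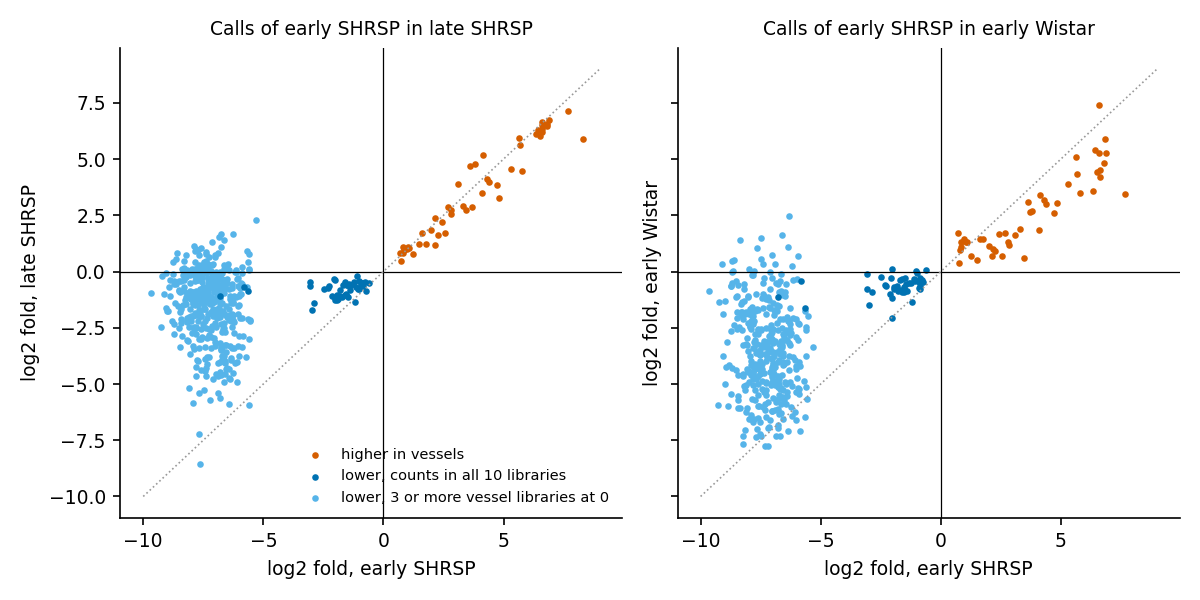
Log2 fold of vessels over neurons for the IDs called in early SHRSP (horizontal) against the same fold fitted in late SHRSP (left panel, vertical) and early Wistar animals (right panel, vertical); the dotted line marks equal folds. All 49 and 48 higher IDs tested lie above 0, while the 433 lower IDs with at least 3 vessel libraries at 0 spread from about the early SHRSP fold to above 0.

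Whether the vessel-to-neuron difference itself differed was tested in 1 model over all 38 libraries and 12117 IDs, and CPM given with it were scaled over all 38. Against early Wistar, 17 IDs passed in edgeR, 2 with a larger (0.0165%) and 15 with a smaller vessel-minus-neuron fold in early SHRSP (0.124%). Of the 50 higher IDs, which were chosen on these early SHRSP libraries, 3 were among the 17. ENSRNOG00000017628 and ENSRNOG00000015550 had a larger fold and ENSRNOG00000031033 a smaller one (-0.95, SE 0.23, edgeR adjusted p = 0.0385). Folds are signed, so a smaller fold is one shifted towards neurons, not a weaker contrast. The median difference over all 12117 IDs was -1.22, so folds in early SHRSP lay further towards neurons in general. An unadjusted p under 0.05 in edgeR was found for 1213 IDs (10%), 1089 of them with a smaller fold. ENSRNOG00000017628 had a fold larger by 4.26 on the log2 scale (SE 0.98, edgeR adjusted p = 0.0254). It measured 1437, 1760, 844, 1131 and 479 CPM in early SHRSP vessels and 3.41 to 9.85 CPM in their neurons, set beside 10.7 to 443 CPM in early Wistar vessels (median 50.5) and 1.55 to 17.3 CPM in their neurons. The lowest early SHRSP vessel value, 479 CPM, lay just above the highest early Wistar one, 443 CPM. The ID was picked for its small p in this comparison, and the share of all IDs with such a gap was not computed. The difference of ENSRNOG00000015550 was 1.65 (SE 0.41, adjusted p = 0.0481). The first call was lost in 4 and the second in 7 of 12 alternatives, with adjusted p in edgeR, DESeq2 and limma voom from 0.000316 to 0.205 and from 0.011 to 0.549. For the second these included the fits without animal 374 (0.0879), 377 (0.344) and 380 (0.0749), and for both the newer quasi-likelihood method (0.135).

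The 15 smaller folds were led by ENSRNOG00000005726 (difference -5.41, SE 0.96, edgeR adjusted p = 0.000122) and ENSRNOG00000004057 (-5.25, SE 0.94). ENSRNOG00000005726 measured 1.83, 1.24, 1.01, 133 and 0.329 CPM in early SHRSP vessels of animals 374, 377, 380, 383 and 386, against 159 to 332 CPM in their neurons. In early Wistar it lay between 19.5 and 459 CPM in vessels and between 60.0 and 487 CPM in neurons. Animal 383 was the 1 early SHRSP animal whose vessel level fell within the early Wistar range. ENSRNOG00000004057 had the same form, at 1.38, 3.09, 1.69, 227 and 2.63 CPM in early SHRSP vessels, against 171 to 383 CPM in their neurons. Without animal 383 the count of 17 was 302, without animal 380 it was 26, and without animal 377, ENSRNOG00000005726 did not pass (adjusted p = 0.379, over 12 alternatives 7.66e-07 to 0.951). Without the animal block the differences of the 2 IDs were -2.44 (edgeR adjusted p = 0.323) and -2.22 (0.319), so neither passed. With the 2 groups alone they also did not pass (0.951 and 0.432).

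Against late SHRSP, 33 IDs had a smaller fold in early SHRSP (0.272%) and 0 a larger one (0%); in edgeR 2656 IDs (21.9%) had an unadjusted p under 0.05, 5 of them with a larger fold, while DESeq2 called 20 larger folds and limma voom 0. None of the 50 vessel-higher IDs was called, and their median difference was 0.21, set beside -2.55 over all 12117 IDs. The 50 were chosen for high folds in these same early SHRSP libraries, so that contrast is in part built in. For ENSRNOG00000015550, ENSRNOG00000029886, ENSRNOG00000016156 and ENSRNOG00000033134 the difference was 0.13, -0.96, 0.15 and -0.71 on the log2 scale, and none passed (edgeR adjusted p = 0.863, 0.130, 0.776 and 0.239). ENSRNOG00000005726 and ENSRNOG00000004057 again had the smallest p, with differences of -5.49 (SE 0.90) and -5.04 (SE 0.92). In late SHRSP, ENSRNOG00000005726 lay between 140 and 353 CPM in vessels and between 381 and 940 CPM in neurons. Without the animal block the differences were -1.92 (edgeR adjusted p = 0.547) and -1.63 (0.586), so neither passed. Without animal 377 the first did not pass (edgeR adjusted p = 0.198, over 12 alternatives 6.78e-08 to 0.547). The count was 18, 18 and 13 without animals 377, 380 and 386, 1558 without animal 383 and 2 in the newer quasi-likelihood method. The number of IDs detected moved with these differences: at equal depth it was 3680 to 9957 in early SHRSP vessels, 9145 to 11402 in late SHRSP vessels and 5235 to 11393 in early Wistar vessels, and its part in them was not tested.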

How the data were processed

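RNA from laser-microdissected vessels and neuron clusters was isolated with the PicoPure kit and made into QuantSeq 3′ mRNA-Seq forward libraries, per the labels' protocols. STAR 2.5.3a and HTSeq 0.6.1 are listed in the submitters' processing notes, beside FastQC 0.11.5 and the authors' DESeq2 1.18.1. The sources used here do not give build, annotation or strand setting. The authors deposited whole-number counts per Ensembl ID without normalization, for 38 libraries and 32883 IDs.

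Counts were fitted with edgeR 4.0.16 in R 4.3.3: edgeR's filter on low counts, TMM scaling, the animal as a block, and the default quasi-likelihood F test with robust shrinkage, two-sided. The spread was shared fully over 8952 of the 9015 IDs (infinite prior degrees of freedom), so very small p-values measure it only roughly; they cover the spread between numbered animals, cutting and library making included. CPM are TMM-scaled. An SE is the log2 fold divided by the square root of F. Alternatives were run with limma 3.58.1 and DESeq2 1.42.0. The steps were tested on simulated counts with known folds, the same spread in both materials and no counts missing from vessels in particular. That test therefore does not bear on the calls of IDs without counts in vessel libraries.

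Members, gene lists and the rule for naming were chosen with earlier results of these data known. Gene lists needed symbols and could not be applied; without symbols the rule names up to 2 IDs in each direction, by smallest p, in each comparison. The number in each title is read as its animal. Across 2519 IDs at log2 CPM 5 or above on average, deviations of same-numbered libraries correlated between -0.0241 and 0.214. The median for differently numbered libraries was -0.00897. The same-numbered library was the best match for animals 377, 380 and 383, but not for animals 374 and 386. These correlations therefore do not settle the reading of the number as the animal. Among 20 pairs of libraries within a group, chi-square per degree of freedom was at least 4.88, so none was a repeat. Limits from counts cover counting error only.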

Additional observations from a re-analysis of the deposited data

Results flagged for a closer look

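In 3 cases a library stood far from the other 4 of their group by the gap to the nearest value relative to the range, with a critical value of 0.71 for 5 samples; 19 sets of values were examined, and chance marks about 1 in 20. The share of the most abundant ID was 17.7% in the vessels and 21.8% in the neurons of animal 383, the highest of each group. The number of IDs at equal depth was lowest in the neurons of animal 374, at 11987; that library is also the shallowest and sets the depth.

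The vessel-minus-neuron fold of early SHRSP differed between sets of animals by a test of the difference itself, for 17 IDs against early Wistar and for 33 IDs against late SHRSP (edgeR, adjusted p under 0.05).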

How the results depend on the processing

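Higher and lower calls numbered 50 and 480. They were 758 and 188 with the median log2 fold set to 0 (80.1% of calls higher, against 9.43%), 43 and 212 with no filter on low counts, 175 and 4475 in DESeq2, 90 and 4168 in limma voom, 140 and 4602 with all 38 libraries, and 66 and 25 in the newer quasi-likelihood method. Without the replicate block 99 and 443 passed. Leaving out 1 animal gave 32 to 91 higher and 12 to 2334 lower calls. Over the 15 alternatives 27 higher and 0 lower calls were kept in every one. ENSRNOG00000016156 and ENSRNOG00000033134 reversed to log2 folds of 2.53 and 1.93 with the median set to 0. The difference from early Wistar (17 IDs) gave 10 with DESeq2-type scaling, 83 in limma voom, 335 without the block, 8 with no filter, 1698 in DESeq2, 7 in the newer method, 3 with the 2 groups alone and 20 to 302 leaving out an early SHRSP animal. The difference from late SHRSP (33 IDs) gave 6, 222, 245, 8, 3302, 2, 2 and 13 to 1558 in the same order. The cause was not tested, except that the median setting shifts every fold by construction.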

Other observations

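The spread between libraries was wider in vessels at every level, with counting error and missing counts included. Level is the mean over both materials, and 86.5% of IDs from 10 to 100 CPM lacked a count in at least 1 vessel library. The part of missing counts in the spread was not tested. The median coefficient of variation over IDs was 0.363 in vessels and 0.177 in neurons for the 76 IDs with a mean of 1000 CPM or more, 0.867 and 0.166 from 100 to 1000 CPM, and 1.57 and 0.246 from 10 to 100 CPM. Under 10 CPM it was 2.24 and 0.363, for IDs with any count in that material. For the 50 vessel-higher IDs it was 0.380 in vessels and 0.280 in neurons.

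The 100 most abundant IDs of each library took 39.7% ± 2.64 of the counts in vessels and 36.9% ± 5.46 in neurons (SD, n = 5 each; exact paired permutation test, two-sided, p = 0.125, where 5 pairs allow no p below 0.0625). Vessels were higher in 4 of 5 pairs; the exception was animal 383, at 43.9% in vessels and 46.6% in neurons. The 10 most abundant IDs took 24.4% ± 4.24 in vessels and 20.9% ± 7.38 in neurons, and 256 ± 42.4 IDs in vessels and 334 ± 101 in neurons held 50% of the counts.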
